A study of Rattus norvegicus with 4 samples.

Results

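The comparison of exercise with untreated ischemia asked what the muscle of exercised ischemic rats expressed differently from the muscle of ischemic rats that had no treatment. It consists of 2 of the 4 arrays of the study, chosen by their titles, and no measured value entered that choice. All rats were of the F344/DuCrlCrlj strain, and total RNA of skeletal muscle was hybridised to 1 single-colour array per group: ischemia with exercise, ischemia with electrical stimulation (ES), ischemia, and sham. The first 3 groups share the ischemia, which models intermittent claudication, leg pain on walking caused by poor blood flow. The muscle sampled, the operation, the age, the exercise protocol, its timing and the number of animals behind an array are unstated in the labels used here. There were no replicates, so each difference below lies between 2 arrays and has no replicate check, SD or p-value.

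Skeletal muscle is built of fast fibres, which contract quickly and tire early, and slow fibres, which contract slowly and work for long on oxidative metabolism. Each type has its own isoforms of myosin, troponin and the calcium pump, so that the isoform genes report which programme a muscle piece holds. Endurance activity is known for favouring slow and oxidative gene programmes. Muscle that is damaged or short of blood takes up macrophages and lays down collagen-rich matrix made by fibroblasts.

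Values are MAS5 signals, the brightness of a set of probes on a linear scale, with each array brought to the same trimmed mean. Signals under 30.1, the median of all values on the 4 arrays, were raised to that floor before a ratio was taken. Where 1 of the pair lay at the floor, the fold is a bound, written as "at least". Of 10092 genes compared, 115 were at least 2-fold higher with exercise than with ischemia and 88 at least 2-fold lower, a background of 1.14% and 0.872%, or 2.01% together. Counts of list members below are to be read beside these shares. The ischemia array was at the floor for 27 of the 115, and the exercise array was at the floor for 15 of the 88. Large differences lay mostly on the higher side: 28 genes were 4-fold or more higher and 4 were 4-fold or more lower. The middle of the distribution was narrow. Genes above the floor on both arrays had a median log2 ratio of -0.004, with the 5th percentile at -0.53 and the 95th at 0.51. Nearest inside the threshold on the higher side were Osbpl3, at 103 with exercise against 51.6 with ischemia, and Nicol1, at 63.6 against 31.7, and outside it Rerg at 1.99-fold and Lgals3 at 1.98-fold. On the lower side E2f2, at 112 with exercise against 225 with ischemia, and Vgll4, at 70.7 against 142, were inside, and Cd74 at 1.99-fold and Cotl1 at 1.98-fold outside. A dimmer probe set of Osbpl3 read 38.7 with exercise and was at the floor with ischemia.

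The median signals of the 2 arrays were 30.3 with exercise and 29.3 with ischemia, and 50.1% and 49.6% of the 31099 probe sets lay above the floor. The 18 spiked control probe sets had a median absolute log2 ratio of 0.05. The 3' over 5' signal ratio of actin, which grows as RNA breaks down, was 4.34 with exercise and 3.81 with ischemia, and that of GAPDH was 1.16 and 1.04. On the ES array, shown beside the pair below, these ratios were 5.94 and 1.26, the highest of the 4 arrays. The sham array had 4.38 and 1.16, close to the exercise array, and the ischemia array had the lowest of the 4. The part of these gaps in the values below was not tested. The hexokinase controls were too dim to serve, with 3' and 5' signals of 1.54 and 1.76 with exercise and 1.04 and 6.63 with ischemia, a ratio of 0.876 against 0.157 made of values far under the floor. The tissue label held on both arrays: all 14 general myofibre genes were within 2-fold (median log2 ratio 0.12), and of these only Dmd, dystrophin, was at the floor on an array of the pair, with a signal of 20.6 with exercise. Among the bright ones were Ttn, the giant spring protein of the sarcomere, at 11776 with exercise and 10970 with ischemia, Acta1, skeletal actin, at 10831 and 9908, and Mb, the oxygen store myoglobin, at 10801 and 10282.

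**Figure D1:**
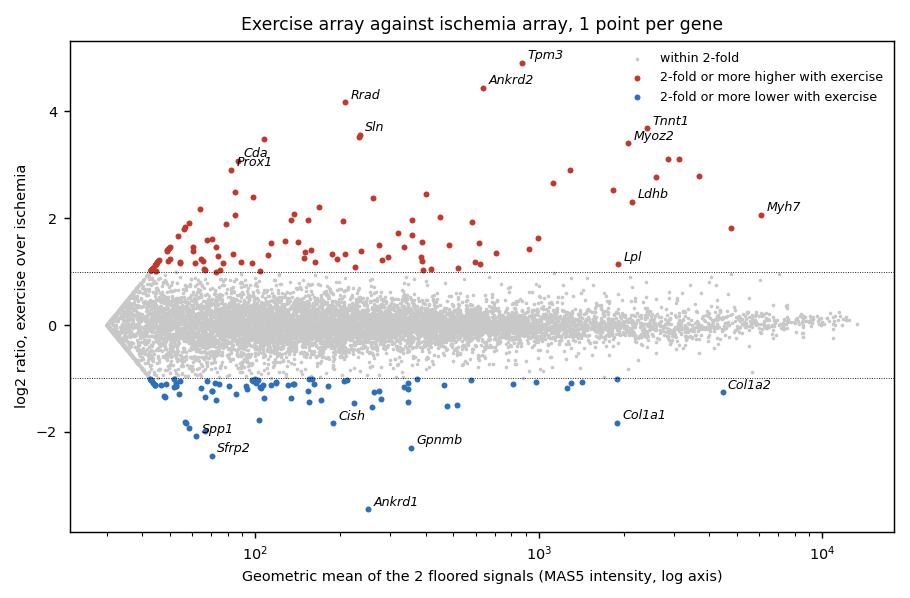
Each point is 1 of the 10092 genes; the x axis is the geometric mean of its floored signals on the exercise and ischemia arrays (MAS5 intensity, log axis) and the y axis its log2 ratio, exercise over ischemia. Red points are the 115 genes 2-fold or more higher with exercise and blue points the 88 lower, and the wedge at the left is made by the floor.

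Slow-fibre contractile genes were far higher with exercise than with ischemia. The gene lists used here were written with earlier results of these data known, so their counts describe and do not test. All 10 members of the slow-twitch list were above the floor on both arrays. All 10 were also 2-fold or more higher, beside a background of 1.14%. Their median log2 ratio was 2.95, against 0.00 over all genes compared. The range ran from 1.81 for Myl3 to 4.90 for Tpm3. The summed signal of the list was 76603 with exercise, 23214 with ES, 11603 with ischemia and 66333 in sham. In a bulk sample, fewer slow fibres and less of this RNA per fibre cannot be told apart.

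Within the thin filament, the slow troponin complex, which lets calcium switch on contraction, differed in all 3 subunits. Tnnt1, the tropomyosin-binding subunit, had a signal of 8659 with exercise, 1278 with ES, 676 with ischemia and 6702 in sham. Tnni1, the inhibitory subunit, had 8435 with exercise, 2224 with ES, 977 with ischemia and 6929 in sham, and its other probe set gave a log2 ratio of 3.67 beside 3.11. Tnnc1, the calcium-binding subunit, had 9176 with exercise, 2013 with ES, 1062 with ischemia and 8049 in sham. For each of the 3, the exercise and sham arrays were high, the ischemia array was lowest, and the ES array lay between. In the thick filament, Myh7, the slow myosin heavy chain, had 12422 with exercise, 4827 with ES, 2970 with ischemia and 11340 in sham, a 4.18-fold difference between exercise and ischemia. Its dimmer probe set differed far more, at 1657 with exercise, 111 with ES, 102 with ischemia and 1543 in sham, a log2 ratio of 4.02. The size of the Myh7 difference therefore depends on the probe set, and its direction does not. The regulatory light chain Myl2 was 6.85-fold higher with exercise (6814 against 995) and the essential light chain Myl3 3.51-fold higher (8949 against 2550).

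Tpm3, which encodes slow tropomyosin among other products, had the highest ratio of any named gene on its brightest probe set. That probe set read 4794 with exercise, 180.1 with ES, 160.2 with ischemia and 3756 in sham. Of its 6 other probe sets above the floor, 3 were measured on both arrays and gave log2 ratios of 0.27, 0.45 and 0.73. The other 3 were at the floor with ischemia and give only bounds, with signals of 52.6, 30.4 and 30.4 with exercise against 19.6, 27.2 and 1.89 with ischemia. A statement that Tpm3 differed 29.9-fold therefore rests on 1 probe set of 7.

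Calcium handling differed in few members: of 22 compared members 4 were higher and 0 lower, beside a background of 1.14%, and the list median was 0.02, or -0.07 under quantile normalization. Atp2a2, the slow-fibre calcium pump, had 9694 with exercise, 2363 with ES, 1405 with ischemia and 8479 in sham. Its other probe sets measured on both arrays gave smaller log2 ratios of 1.96 and 1.53, beside 2.79. Another, at the floor with ischemia, was at least 2.24-fold higher. The size of the Atp2a2 difference therefore depends on the probe set, and its direction does not. Casq2, the cardiac and slow-fibre calcium buffer of the store, had 936 with exercise, 746 with ES, 171 with ischemia and 704 in sham, and its other probe set gave a log2 ratio of 2.47 beside 2.45. Sln, sarcolipin, a small inhibitor of the calcium pump, had 802 with exercise, 665 with ES, 68.2 with ischemia and 1420 in sham. For Casq2 and Sln the ES array was close to the exercise array, while for Atp2a2 it was nearer to the ischemia array. Ryr3, a calcium release channel, was 2.31-fold higher with exercise at 99.8 against 43.3. The fast-fibre counterparts were within 2-fold: Atp2a1, the fast calcium pump, read 11010 with exercise and 10854 with ischemia, Casq1 9699 and 8947, and the release channel Ryr1 had a log2 ratio of -0.04.

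The fast-fibre contractile list gave none past 2-fold among 15 compared members, with a median log2 ratio of 0.07. The fast myosin genes Myh4 and Myh2 had 13339 and 9284 with exercise, against 13178 and 8833 with ischemia. Actn3, the fast-fibre actinin, had a log2 ratio of 0.11. Tnnt3, fast troponin T, had 0.25 on its brightest probe set and -1.02 on another, so its probe sets disagree. Several of these signals are among the brightest on the arrays, and whether they were near the end of the scanner's range was not tested.

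Genes of the Z-disc, the anchor of the thin filaments, and of the muscle stress response leaned higher with exercise, except for Ankrd1, described below. Of 23 compared members 7 were higher and 1 lower with exercise, beside backgrounds of 1.14% and 0.872%. In all, 18 had a ratio above 0, and the median was 0.53. Ankrd2, an ankyrin-repeat protein that responds to stretch and is typical of slow fibres, had 2978 with exercise, 549 with ES, 137 with ischemia and 2141 in sham. Myoz2, a calcineurin-binding Z-disc protein of slow fibres, had 6725 with exercise, 2160 with ES, 637 with ischemia and 6181 in sham. Csrp3, the muscle LIM protein, had 3525 with exercise, 2360 with ES, 469.9 with ischemia and 2424 in sham. Fhl2, a LIM-domain adaptor, had 359 with exercise, 59.8 with ES, 32.1 with ischemia and 214 in sham, so its ischemia value lay just above the floor. Its other probe set was at the floor with ischemia and at least 4.71-fold higher with exercise. Xirp1, an actin-binding repair protein, was 2.89-fold higher, the LIM protein gene Pdlim1 2.92-fold and Lmcd1, an activator of calcineurin signalling in mice, 2.67-fold. Fhl1 and Cryab, the small heat shock protein that protects desmin, were within the threshold at 1.94-fold and 1.80-fold higher, although a dimmer probe set of Fhl1 gave a log2 ratio of 1.43.

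Ankrd1, a close relative of Ankrd2 that is switched on in injured or denervated muscle, was the lowest of all named genes. It had 75.7 with exercise, 1298 with ES, 826 with ischemia and 77.7 in sham. The exercise and sham arrays were low and the ES and ischemia arrays high, with a log2 ratio of -3.45 between exercise and ischemia. A second probe set was at the floor with exercise and at least 8.86-fold lower. Ankrd1 and Ankrd2 therefore stood at the opposite ends of the comparison.

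The sequence around the start is shown for 4 genes past 2-fold, picked by hand and not the 4 with the largest ratios. Their RefSeq promoter windows (GRCr8, 250 bases before to 50 after the annotated start) are printed 5' to 3'. They are 2 slow-fibre genes, Ankrd2, and Gpnmb, a macrophage gene that was lower with exercise and is described further on. Capitals mark matches, on either strand, to the MEF2 motif (CTA and TAG with any 4 bases between them), the MCAT motif CATTCC and the E-box CANNTG, which muscle transcription factors of the MEF2, TEAD and MyoD families are known to bind.
Tnnt1, chr1:78348785-78349084, plus strand: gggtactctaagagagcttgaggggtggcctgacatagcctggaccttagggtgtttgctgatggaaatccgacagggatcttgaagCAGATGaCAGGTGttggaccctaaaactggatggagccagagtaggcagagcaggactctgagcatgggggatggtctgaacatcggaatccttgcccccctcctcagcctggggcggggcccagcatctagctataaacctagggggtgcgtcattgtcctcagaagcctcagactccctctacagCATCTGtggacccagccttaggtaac
Myoz2, chr2:213852729-213853028, minus strand: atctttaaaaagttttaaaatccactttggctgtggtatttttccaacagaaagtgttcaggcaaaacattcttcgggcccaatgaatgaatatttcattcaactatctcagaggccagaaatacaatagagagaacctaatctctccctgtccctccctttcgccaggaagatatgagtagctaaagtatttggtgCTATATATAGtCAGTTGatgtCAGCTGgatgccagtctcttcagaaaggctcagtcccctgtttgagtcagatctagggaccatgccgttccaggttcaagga
Ankrd2, chr1:250796169-250796468, plus strand: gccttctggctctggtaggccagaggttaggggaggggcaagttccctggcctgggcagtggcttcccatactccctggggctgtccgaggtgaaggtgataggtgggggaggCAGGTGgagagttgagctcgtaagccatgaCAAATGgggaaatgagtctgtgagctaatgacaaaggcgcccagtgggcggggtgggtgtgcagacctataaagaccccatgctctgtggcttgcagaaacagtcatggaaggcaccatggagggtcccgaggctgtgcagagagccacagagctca
Gpnmb, chr4:79340878-79341177, plus strand: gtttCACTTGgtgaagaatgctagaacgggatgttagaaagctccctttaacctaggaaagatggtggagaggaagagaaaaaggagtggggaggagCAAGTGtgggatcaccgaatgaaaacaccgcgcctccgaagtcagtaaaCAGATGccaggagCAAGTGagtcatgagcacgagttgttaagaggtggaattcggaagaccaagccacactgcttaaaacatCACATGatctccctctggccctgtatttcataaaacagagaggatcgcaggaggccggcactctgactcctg
The Myoz2 window held 1 MEF2 match, 53 bases before the start, and 2 E-boxes behind it, while the windows of Tnnt1, Ankrd2 and Gpnmb held 3, 2 and 5 E-boxes and no MEF2 match. No MCAT match lay in the 4 windows. Of the 203 genes past 2-fold, 155 had a window. The MEF2 motif was present in 5 of 108 windows of higher genes and in 0 of 71 windows of lower genes, against 3.84% of all 33469 windows. The E-box was present in 74.1% of windows of higher genes and 73.2% of windows of lower genes, against 72.1% of all windows, and the MCAT motif in 15.7% and 21.1%, against 14.2%. A match is a run of letters and shows no binding.

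Among regulators of the slow programme, 2 of 23 compared members were higher, beside a background of 1.14%, and 0 were lower. The list median was 0.27. Prox1, a homeobox factor that promotes slow-fibre genes in mice, read 225 with exercise, 49.2 with ES, 26.7 with ischemia and 129.8 in sham, so that it was at least 7.46-fold higher with exercise. Rcan1, a calcineurin regulator and a known target of calcineurin signalling, had 559 with exercise, 319 with ES, 203 with ischemia and 584 in sham. The calcineurin subunit gene Ppp3ca was within 2-fold on both probe sets, at log2 ratios of -0.13 and -0.21, as was the transcription factor gene Mef2c, at -0.08 and -0.05. Ppargc1a, the coactivator of mitochondrial genes, had 467 with exercise, 334 with ES, 250.0 with ischemia and 308 in sham. Its 1.87-fold ratio stayed within the threshold, and 2 other probe sets gave log2 ratios of 0.40 and 1.08.

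**Figure D2:**
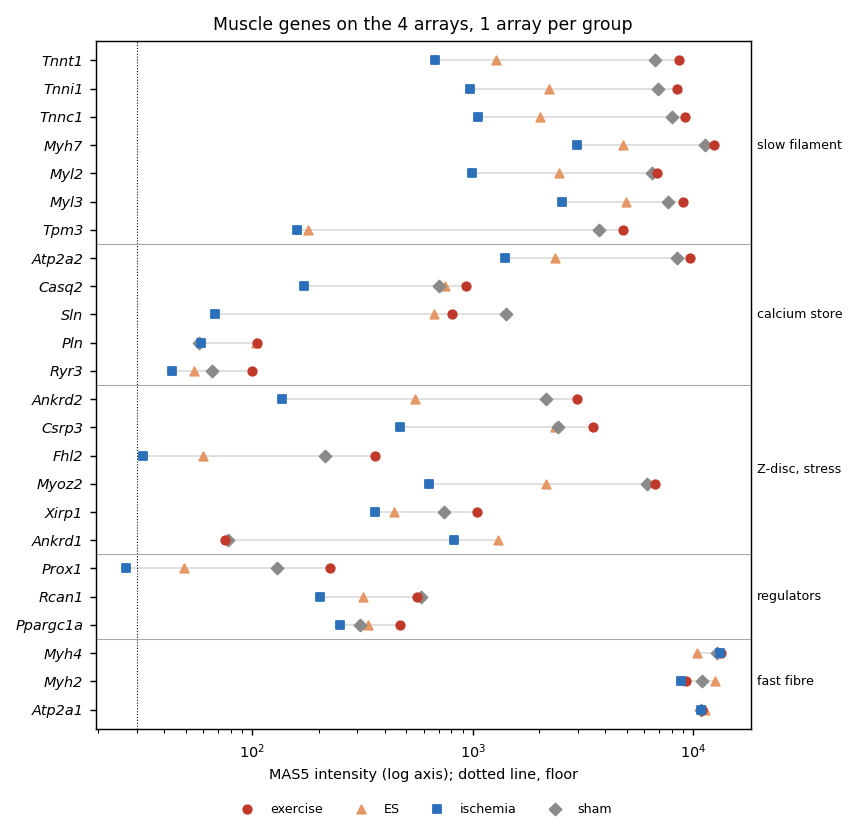
Signals of muscle genes (MAS5 intensity, log axis) on the exercise, ES, ischemia and sham arrays, 1 array each, with the floor as a dotted line. In the slow filament group the ischemia square is the lowest and the exercise circle the highest for each gene, Ankrd1 shows the reverse for that pair, and the 3 fast-fibre genes lie close together. Pln, phospholamban, was drawn after its values were seen.

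Of 6 compared genes of RGK GTPases and calcium channel subunits 1 was higher, beside a background of 1.14%, and 0 were lower. The list median of 0.02 changes sign with the floor. The higher one, Rrad, ranked after Tpm3 and Ankrd2 over all genes compared. It encodes an RGK-family GTPase that holds back voltage-gated calcium channels, and it read 883 with exercise, 117 with ES, 49.1 with ischemia and 459 in sham, a log2 ratio of 4.17. The channel subunit genes Cacna1s and Cacng1 had log2 ratios of -0.05 and -0.08. Xpo4, a nuclear export receptor, had 788 with exercise, 89.7 with ES, 69.0 with ischemia and 521 in sham, a log2 ratio of 3.51. A dimmer probe set gave 1.74, and another, at the floor with ischemia, was at least 3.69-fold higher.

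Some higher genes outside the lists act on actin and microtubules. They were picked from the 115 after their values were seen, so no share can be set beside the background. Lmod2, leiomodin 2, which elongates thin filaments in striated muscle, had 2811 with exercise, 1114 with ES, 446 with ischemia and 1960 in sham. Ablim1, an actin-binding LIM protein, was 3.81-fold higher (1133 against 297), and its dimmer probe set, at the floor with ischemia, at least 1.71-fold higher. Myh10, a non-muscle myosin, was 3.89-fold higher at 703 against 181, and Enah, an actin-filament elongation factor, 3.88-fold at 263 against 67.7, with another probe set, at the floor with ischemia, at least 1.57-fold higher. Smaller ratios were those of Smtnl1, a smoothelin-like muscle protein, at 3.07-fold, Tppp3, a tubulin polymerisation factor, at 2.53-fold, and Coro6, a coronin, at 2.09-fold. Ky, which encodes a Z-disc-associated protein whose loss causes muscle disease in mice, went the other way. It was 2.01-fold lower at 1329 with exercise against 2673 with ischemia, with another probe set at a log2 ratio of -0.99.

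Immediate early and heat shock genes each held a few higher members. Of 22 compared immediate early genes, which are transcribed first after a stimulus, 4 were higher, beside a background of 1.14%, and 0 lower. The list median was 0.24. Atf3, a stress-induced transcription factor, had 283 with exercise, 102 with ES, 67.0 with ischemia and 259 in sham. Fos had 298 with exercise, 115 with ES, 127 with ischemia and 719 in sham, so its highest value was in sham and not with exercise. Egr1 had 427 with exercise, 206 with ES, 183 with ischemia and 242 in sham. Nr4a3, an orphan nuclear receptor known to respond to exercise, had 226 with exercise, 5.55 with ES, 43.0 with ischemia and 37.9 in sham, and was high on the exercise array alone. Its 2 other probe sets disagreed, with log2 ratios of 1.70 and -0.06. Jun and Jund, the partners of Fos, were within 2-fold at log2 ratios of 0.21 and 0.40.

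Of 18 compared heat shock and chaperone genes, 2 were higher, beside a background of 1.14%, and 0 lower, with a median of 0.24. Hspb7, a small heat shock protein of heart and muscle, had 4395 with exercise, 2754 with ES, 767 with ischemia and 3546 in sham. Its other probe set differed less, with a log2 ratio of 0.89 beside 2.52. Hspa1a, the inducible HSP70, had 580.1 with exercise, 209 with ES, 177 with ischemia and 443 in sham, and HSP70 genes have near-identical copies that the probes may not tell apart. The mitochondrial chaperonin genes Hspd1 and Hspe1 had log2 ratios of -0.01 and -0.04. Ddit3, a transcription factor of the unfolded protein response, was 2.40-fold higher at 455 against 189.

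In the glycolysis, fatty acid and respiratory chain lists, few genes passed the threshold, and the highest ratio was that of Ldhb. It encodes the heart-type lactate dehydrogenase subunit, common in oxidative fibres, and had 4758 with exercise, 3357 with ES, 966 with ischemia and 4615 in sham. Ldha, the subunit of glycolytic fibres, had a log2 ratio of -0.01. In the glycogen and glycolysis list 1 of 26 compared members was higher, Ldhb itself, and 1 lower, Hk1 (33.2 with exercise against 71.0 with ischemia). The backgrounds were 1.14% and 0.872%, and the list median rounds to 0.00. In the list for taking up and burning fatty acids, 28 of 32 members had a ratio above 0 and the median was 0.29. Past 2-fold only 1 of the 32 was higher, beside a background of 1.14%, and 0 were lower. The higher one was Lpl, the lipase that frees fatty acids from lipoproteins. Lpl had 2817 with exercise, 2254 with ES, 1284 with ischemia and 2986 in sham. Over all genes compared, 4811 had a ratio above 0 and 4913 below. Fabp3, the fatty acid carrier of muscle, was 1.75-fold higher, and Acadl and Hadhb of beta-oxidation 1.19-fold and 1.15-fold. The citrate cycle and respiratory chain list gave none past 2-fold among 31, with a median of 0.05 that turned to -0.05 under quantile normalization, and Cs, citrate synthase, read 4224 with exercise and 4012 with ischemia. Pdk4, which closes the entry of pyruvate to the mitochondria, was 1.28-fold and the glucose transporter gene Slc2a4 1.32-fold higher, and Prkaa2, a catalytic subunit of AMP-activated kinase, 1.24-fold lower.

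In the phosphotransfer and nucleotide list 2 of 14 compared members were higher, beside a background of 1.14%, and 0 lower. The list median was -0.09. Cda, cytidine deaminase, had 254 with exercise, 10.1 with ES, 20.8 with ischemia and 187 in sham, at least 8.42-fold higher with exercise. Ampd3, an AMP deaminase, was 2.60-fold higher, while its muscle isoform Ampd1 was within 2-fold at -0.39 in log2 ratio. The transporter and signalling genes that follow were likewise picked from the higher genes, though some are list members. Slc38a1 is in the amino acid and one-carbon list, where 2 of 17 compared members were higher and 1 lower. Fgf1 was the only higher gene of 21 compared in the angiogenesis and hypoxia list, and Colq of 14 in the neuromuscular junction list. The backgrounds were 1.14% higher and 0.872% lower. Slc38a1, a glutamine transporter, was 4.19-fold higher (175 against 41.6), with another probe set, at the floor with ischemia, at least 2.68-fold higher. Slc2a13, a myo-inositol transporter, was 3.86-fold higher, Slc4a3, an anion exchanger, 3.71-fold, and Slc20a1, a phosphate transporter, 2.53-fold. Crym, which binds thyroid hormone in the cytosol, had 363 with exercise, 261 with ES, 78.4 with ischemia and 167 in sham. Among signalling genes, Tnfrsf12a, the receptor of the cytokine TWEAK, had 907 with exercise, 334 with ES, 222 with ischemia and 403 in sham, and was highest on the exercise array. Fgf1, a fibroblast growth factor, was 2.66-fold higher at 258 against 96.8, and Sdc4, a heparan sulphate proteoglycan, 2.04-fold at 561 against 274. Genes at the floor with ischemia also included Eps8l2 (at least 4.53-fold higher), Vtcn1 (at least 3.77-fold), Colq, the collagen tail of acetylcholinesterase (at least 3.49-fold), Hey2, a Notch target (at least 3.17-fold), Tnn (at least 2.77-fold), Cidea (at least 2.71-fold) and Scn1a (at least 2.69-fold).

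**Figure D3:**
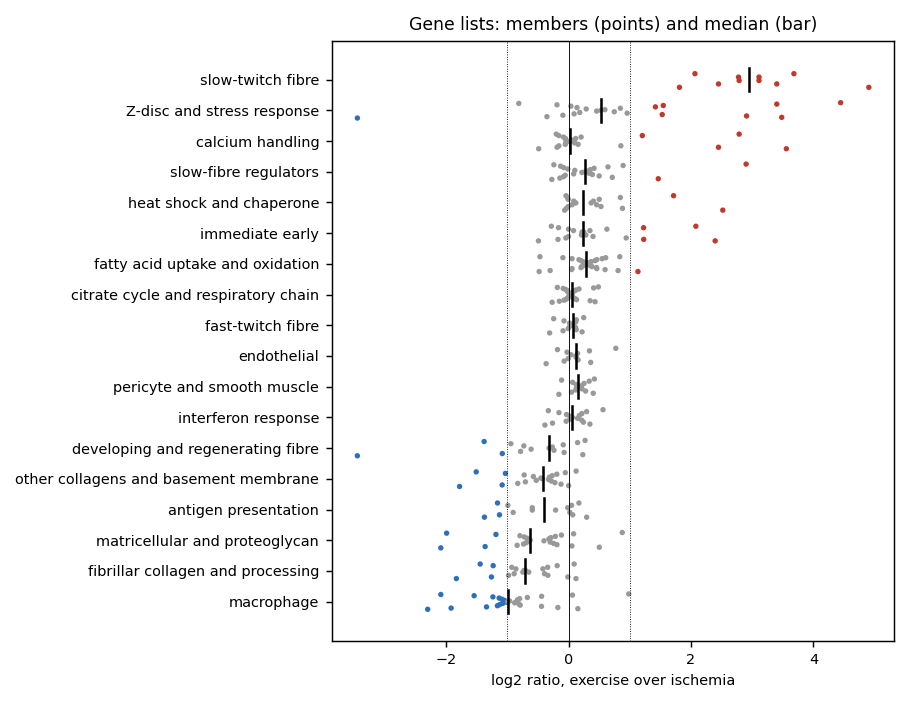
Log2 ratios, exercise over ischemia, of the compared members of 18 gene lists (grey within 2-fold, red 2-fold or more higher, blue 2-fold or more lower), with the median as a bar. The slow-twitch list lies wholly to the right of the threshold (median 2.95), the macrophage list has its median at -0.99, and the fast-twitch list sits around 0.

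On the lower side, collagen genes made up a large group. In the list of fibrillar collagens and the enzymes that process them, 4 of 20 compared members were lower and 0 higher, beside a background of 0.872%, and 18 had a ratio below 0, with a median of -0.72. Col1a1 and Col1a2, the chains of type I collagen, both differed. Col1a1 had 1000 with exercise, 2385 with ES, 3561 with ischemia and 1137 in sham, and Col1a2 had 2878 with exercise, 4819 with ES, 6889 with ischemia and 2802 in sham. Their other probe sets gave log2 ratios of -1.88 and -1.41, beside -1.83 and -1.26. For both chains the exercise and sham arrays were low and close, the ischemia array was highest, and the ES array lay between. Pcolce, which speeds the trimming of procollagen, was 2.72-fold lower (211 with exercise against 573 with ischemia). Lox, which crosslinks collagen, was 2.35-fold lower (179 against 421), and its other probe set gave a log2 ratio of -1.06. Col5a1, Col3a1 and Col5a2 stayed within the threshold at 1.97-fold, 1.85-fold and 1.81-fold lower, and a dimmer probe set of Col5a1 passed it at a log2 ratio of -1.28.

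Among other collagens and basement membrane genes, 4 of 21 were lower, beside a background of 0.872%, and 0 higher, with a median of -0.42. Collagen VI, which surrounds each fibre as a beaded filament, differed in its 3 main chains. Col6a3 had 895 with exercise, 1980 with ES, 1897 with ischemia and 898 in sham, and Col6a1 had 405 with exercise, 1174 with ES, 828 with ischemia and 394 in sham. Col6a2 was 3.43-fold lower at 55.8 against 192, with a dimmer probe set at a log2 ratio of -0.76. Col14a1, a fibril-associated collagen, was 2.84-fold lower with another probe set at -0.78, and Col6a6, a further chain outside the list, 2.26-fold lower. The basement membrane gene Lamb2, a laminin chain, had a log2 ratio of 0.12, and Nid1, nidogen, -0.05 on its brightest probe set and 0.33 on another.

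The matricellular and proteoglycan list had a median of -0.63. Of its 25 compared genes, 0 were higher and 4 were lower, beside a background of 0.872%. They were Postn, Tnc, Cthrc1 and Spp1, the last also a macrophage gene described below. Postn, periostin, which binds collagen in healing tissue, had 834 with exercise, 1369 with ES, 1898 with ischemia and 642 in sham. Tnc, tenascin C, a matrix protein of injured muscle, had 83.8 with exercise, 101 with ES, 215 with ischemia and 69.5 in sham. Tnn, another tenascin gene, was outside the list and went the other way. It was at least 2.77-fold higher, at 83.3 with exercise against 2.25 with ischemia. Cthrc1, secreted by activated fibroblasts, had 33.5 with exercise, 81.8 with ES, 133 with ischemia and 35.5 in sham. The abundant proteoglycan genes Lum and Dcn differed little, at log2 ratios of 0.08 and -0.32. Ccn2, a growth factor of connective tissue, was within 2-fold but higher by 0.88. Of the secreted Wnt modulators, Sfrp2 had 22.9 with exercise, 79.4 with ES, 164 with ischemia and 41.3 in sham, at least 5.44-fold lower with exercise. Its other probe set was also at the floor with exercise and at least 2.34-fold lower. Sfrp4 had 308 with exercise, 321 with ES, 867 with ischemia and 307 in sham, so it stood high on the ischemia array alone. Aebp1, a secreted collagen-binding protein, was 2.38-fold lower, Ptn, pleiotrophin, 2.29-fold, and Mfap2, of elastic microfibrils, 2.27-fold.

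Of 13 compared matrix proteases and inhibitors 0 were lower past 2-fold and 1 was higher, beside a background of 1.14%. Yet 10 of the 13 lay under 0 in log2 ratio (list median -0.51). The higher one, Mmp13, a collagenase, differed by at least 2.62-fold. Mmp13 read 79.0 with exercise, 2.05 with ES, 6.26 with ischemia and 131 in sham. Mmp2 and Mmp14 were within 2-fold at log2 ratios of -0.57 and -0.73, and a dimmer probe set of Mmp14 was past it at -1.99. The fibroblast marker list had 2 of 15 lower, beside a background of 0.872%, with a median of -0.32. They were Col1a1 and Thy1, a surface glycoprotein (71.9 with exercise against 146 with ischemia). The summed signal of that list was 15841 with exercise, 17549 with ES, 20010 with ischemia and 14204 in sham, and 1 compared marker, Dpep1, was at the floor with exercise. The part of fibroblast number in the collagen ratios was not tested.

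Macrophage genes were the list with the most lower members. Of 27 compared 13 were lower, beside a background of 0.872%, and 0 higher. In all, 24 lay below 0 in log2 ratio, against 4913 of the 10092 genes compared, and the list median was -0.99. The summed signal was 4446 with exercise, 8338 with ES, 7021 with ischemia and 3348 in sham, and 5 markers were at the floor with exercise: Cd68, Spp1, Fcgr1a, Fcgr2b and Trem2. The part of macrophage number in these ratios was not tested. Gpnmb, a glycoprotein of lipid-laden and repair macrophages, had 159.8 with exercise, 1158 with ES, 787 with ischemia and 105 in sham. Cybb, the catalytic subunit of the phagocyte oxidase, had 151 with exercise, 521 with ES, 439.9 with ischemia and 151 in sham. Lyz2, lysozyme, had 984 with exercise, 2553 with ES, 2073 with ischemia and 925 in sham. For these 3 genes the exercise and sham arrays were low, and the ES array was the highest of the 4. Cd68, a lysosomal marker of macrophages, and Spp1, osteopontin, were at the floor with exercise, at least 3.78-fold and 4.24-fold lower. Adgre1, which encodes the F4/80 antigen, was 2.53-fold lower at 42.0 against 106, and Csf1r, the receptor for the growth factor of these cells, 2.06-fold lower at 68.5 against 141. The leukocyte genes Ptprc, Aif1, Itgb2, Cd53 and Laptm5 were between 2.01-fold and 2.35-fold lower, and Fcgr2b, an inhibitory antibody receptor, at least 2.18-fold. Lgals3, galectin 3, went the other way at 1.98-fold higher, 1590 with exercise against 804 with ischemia. Cd163, a marker of resident macrophages chosen after its values were seen, had 57.7 with exercise and 51.9 with ischemia.

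The antigen presentation list, which holds genes of both MHC class I and class II, had a median of -0.40. Of its 14 members 0 were higher and 3 lower, beside a background of 0.872%. The 3 belong to class II, which macrophages and dendritic cells use to show antigen to T cells. RT1-Da had 314 with exercise, 614 with ES, 686 with ischemia and 354 in sham. RT1-Bb was 2.23-fold lower (225 against 502) and RT1-Ba 2.59-fold (66.8 against 173). A pair of dim probe sets of RT1-Ba lay at the floor with exercise and just above it with ischemia, at 33.1 and 32.6, and bound little. Cd74, the invariant chain, was just outside the threshold at 1.99-fold lower, and B2m, which belongs to class I, had log2 ratios of 0.05 and -0.29 on its 2 probe sets. RT1 genes are alike in sequence, and the probes may not separate them. The complement list had none of 10 past 2-fold, with a median of -0.57, and C1qa was 1.75-fold lower. Ccl2, a chemokine that draws monocytes, was at least 2.54-fold lower and at the floor with exercise. Apoe, which carries lipids and is made by macrophages, had 679 with exercise, 1333 with ES, 1422 with ischemia and 462 in sham. Ctsk, a collagen-degrading cathepsin, was 2.64-fold lower at 105 against 278, and the myeloid genes Mnda and Clec4a3 were 2.72-fold and 2.64-fold lower. Ccl2, Apoe and Ctsk were each the only lower gene of a list, beside a background of 0.872%. Those lists compared 16 cytokine and chemokine, 13 cholesterol and lipid efflux, and 20 lysosome and cathepsin genes.

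**Figure D4:**
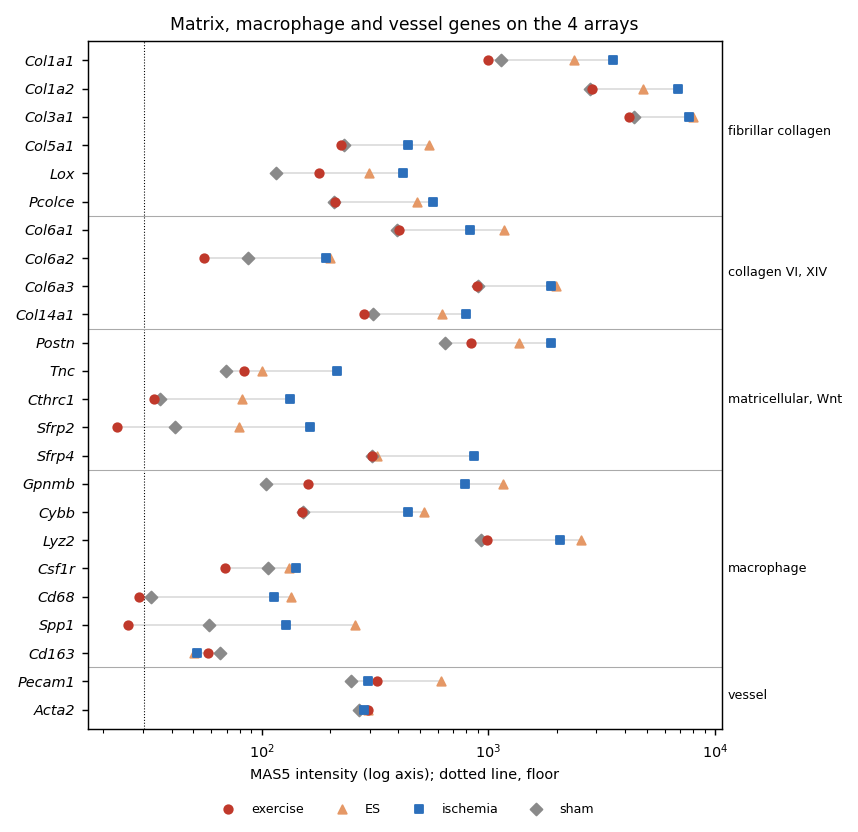
Signals of matrix, macrophage and vessel genes (MAS5 intensity, log axis) on the exercise, ES, ischemia and sham arrays, 1 array each, with the floor as a dotted line. In the collagen and matricellular groups the exercise circle and the sham diamond lie left of the ischemia square, and Cd163, Pecam1 and Acta2 show little separation between exercise and ischemia.

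Genes of developing and regenerating fibres were lower or within 2-fold, with a median of -0.32. Of 15 compared, 0 were higher and 3 were lower, beside a background of 0.872%. Beside Ankrd1 these were Cdkn1c, a cell cycle inhibitor (172 with exercise, 834 with ES, 447 with ischemia and 224 in sham), and the imprinted gene Mest (81.5 with exercise, 266 with ES, 172 with ischemia and 111 in sham). On both the ES array was the highest. Myh8, the perinatal myosin, was within 2-fold at 45.0 with exercise against 86.4 with ischemia, and the myogenic factor genes Myod1 and Myf6 had log2 ratios of -0.61 and 0.15. Among growth signalling genes, 1 of 17 was lower, beside a background of 0.872%. This was Cish, an inhibitor of cytokine receptor signalling, with 99.2 with exercise, 60.5 with ES, 355 with ischemia and 292 in sham. Here sham and ischemia were high and both treated arrays low, unlike the collagen genes. Gadd45g, a stress-response gene, had 134 with exercise, 137 with ES, 371 with ischemia and 395 in sham, so sham and ischemia were again high and both treated arrays low. Of 9 compared genes in its list of Gadd45, p21 and p53 targets 2 were lower, beside a background of 0.872%. Igf2 and Igf1, the insulin-like growth factors, were within 2-fold, at log2 ratios of -0.78 and -0.56, and the other probe sets of Igf1 gave -0.89 and -0.71.

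Vessel cell markers gave none past 2-fold in either direction. The median was 0.12 over 13 endothelial markers and 0.15 over 15 markers of pericytes and smooth muscle. Pecam1, an endothelial adhesion molecule, had 321 with exercise, 616 with ES, 296 with ischemia and 249 in sham, and Cldn5, of endothelial tight junctions, 297 with exercise, 821 with ES, 298 with ischemia and 184 in sham. Both were high on the ES array alone. In the angiogenesis and hypoxia list 1 of 21 compared members was higher, Fgf1, given above, beside a background of 1.14%, and 0 were lower. Vegfa, the main growth factor for vessels, was 1.37-fold higher at 764 against 557, with another probe set at a log2 ratio of 0.37. Hif1a had 723 with exercise and 687 with ischemia, and Nos3 67.6 and 71.0. The interferon response list had none of 17 past 2-fold, with a median of 0.06, and no gene of the atrophy list passed among 18, with Trim63, a muscle ubiquitin ligase, at 1867 on both arrays. Mstn, myostatin, exceeded the floor on none of the 4 arrays and has no ratio.

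The comparisons of exercise and of ES with ischemia share the ischemia array, and so does that of ischemia with sham, so their ratios are not independent. Side by side, the median log2 ratios of the slow-twitch list were 2.95 for exercise over ischemia, 0.94 for ES over ischemia and -2.77 for ischemia over sham. For the macrophage list they were -0.99, 0.12 and 0.79, and for the fibrillar collagen list -0.72, 0.02 and 0.84. For the endothelial list they were 0.12, 0.90 and -0.02. Between exercise and sham, which do not use the ischemia array, the medians were 0.21 for the slow-twitch, -0.05 for the macrophage, 0.02 for the fibrillar collagen and 0.12 for the endothelial list.

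Further probe sets were above the floor on the exercise or the ischemia array for 38 of the 203 genes past 2-fold. In 32 of the 38 all of them had the direction of the brightest probe set, and in 6 a probe set went the other way. Of these 55 further probe sets, 23 had 1 array at the floor, which cuts their ratio by construction. Among the 32 measured on both arrays, 27 had the same direction, 12 of these past 2-fold, and 26 had a smaller ratio than the brightest probe set or went the other way. The 6 genes with a probe set the other way were Nr4a3, Dapk2, Tubb4a and Cops7b among the higher and Clmp and Ttc9 among the lower genes.

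**Figure D5:**
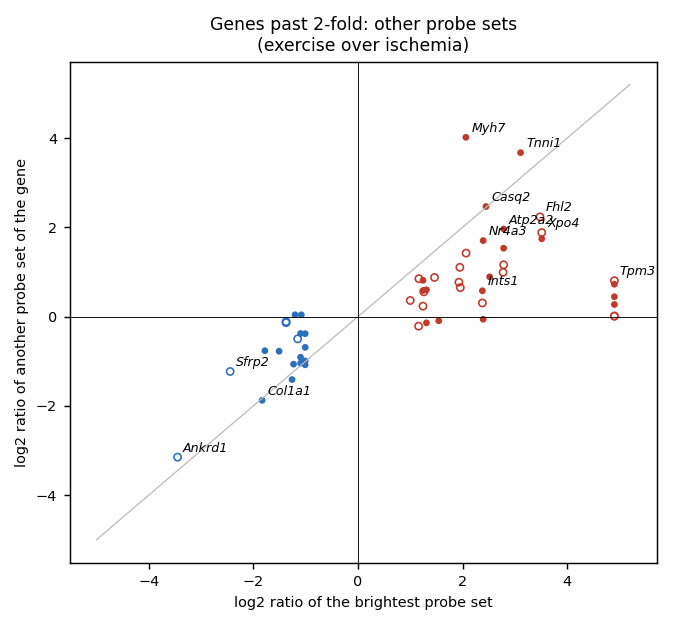
For genes past 2-fold with more than 1 probe set above the floor, the log2 ratio (exercise over ischemia) of the brightest probe set is on the x axis and that of each other probe set on the y axis, with the line of equality in grey. Open points have 1 array at the floor and are bounds. Ankrd1, Col1a1 and Casq2 lie near the line, Myh7 lies above it, and the other probe sets of Tpm3, 3 of them bounds, lie far under it.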

How the data were processed

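The 2 arrays compared, ischemia with exercise and ischemia, and the sham and ES arrays shown beside them were assigned by title. The authors deposited 1 intensity per probe set on a linear scale, and the submitters' processing notes name MAS5 with no version number. The cRNA kit primes at the 3' end, per the labels' protocols. Equal trimmed means (150.1 on each array, 2% cut at each end) show that arrays were scaled before deposit, so a difference in total mRNA cannot be seen. Of 31099 probe sets, 20832 had 1 symbol in the platform annotation of 2016, 436 several and 9831 none; 20764 of the 20832 matched a RefSeq gene identifier (GRCr8). A gene was its brightest probe set over the 4 arrays, and was compared if above the floor (the 50th percentile of all values) on at least 1 of the 4. With 1 array per group no test was run, and the number of arrays limits the precision. On simulated arrays the same steps recovered all 200 genes given a 4-fold change among 9516 compared, and called 0 others. The simulated arrays shared 1 mean profile with little noise, and the changed genes were all far above the floor. The simulation therefore checks the calculation only and gives no rate of false calls for the real arrays. Of 49 gene lists, 744 genes were compared. The members, the lists and the naming rule were chosen with earlier results of these data known. The rule allowed any gene past 2-fold with a full symbol, the 6 brightest members of a list within 2-fold, and 12 fixed genes. Promoter windows came from RefSeq. Alternatives were quantile and cyclic loess normalization (limma 3.58.1), other floors and thresholds, and other uses of probe sets.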

Additional observations from a re-analysis of the deposited data

Results flagged for a closer look

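Probe sets without a gene symbol were outside the comparisons above and also held differences. Of 3561 that exceeded the floor on 1 or more of the 4 arrays, 30 were 2-fold or more higher and 21 were 2-fold or more lower with exercise than with ischemia, which is 1.43%. The highest was 1374049_at, which read 2235 with exercise, 69.7 with ES, 38.5 with ischemia and 2601 in sham. Its 58.0-fold ratio exceeds that of any named gene. The next, 1381610_at, read 383 with exercise, 62.4 with ES, 19.6 with ischemia and 215 in sham, at least 12.7-fold higher. The lowest, 1376193_at, was 2.63-fold lower at 62.9 with exercise against 165 with ischemia. Which transcripts these probe sets measure is not given in the annotation used here.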

How the results depend on the processing

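The number of genes past 2-fold depended mainly on the floor and the threshold. With the floor at the 30th percentile 306 of 12567 genes compared were higher and 268 lower. With the floor at the 70th percentile 62 of 7099 were higher and 35 lower. The shares past 2-fold were 4.57% and 1.37%, against 2.01% with the floor used above. At 1.5-fold the counts were 406 and 428, and at 3-fold 43 and 11. Quantile and cyclic loess normalization gave 114 higher genes each, with 84 and 87 lower, and 197 and 198 of the 203 genes stayed past 2-fold. The mean of all probe sets kept 190 of them. All 10 slow-twitch genes were past 3-fold too, and 9 passed 2-fold with the mean of all probe sets, Tpm3 being the exception. Over all genes compared, 43 of 10092 were 3-fold or more higher, and 110 of 10098 passed 2-fold higher with that mean. Fibrillar collagen genes lower were 12 at 1.5-fold and 1 at 3-fold. Macrophage genes lower were 21 at 1.5-fold, 3 at 3-fold, and 3 with the floor at the 70th percentile, a floor that removes dim genes. Over all genes compared, 428 of 10092 were lower at 1.5-fold, 11 of 10092 at 3-fold and 35 of 7099 with that floor. No gene past 2-fold turned its direction under the 6 settings run for single genes. The floor settings among them could not turn a ratio, because a floor only narrows or widens it. With the floor at the 70th percentile, 49 of the 203 genes had no value and 97 stayed past 2-fold. List medians of at least 0.2 in size kept their sign, except that of cholesterol and lipid efflux, which was 0.00 with the floor at the 70th percentile. Signals near the floor carry the least precise ratios. Leaving out a replicate was not possible with 1 array per group. No paired analysis was possible because each group has 1 array.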

Other observations

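In the circadian clock list, Dbp, an output gene of the clock, was 2.52-fold higher (297 with exercise, 368 with ES, 118 with ischemia and 125 in sham) and the other 15 of 16 members were within 2-fold. That 1 of 16 stands beside a background of 1.14%. In the adipocyte list, 9 of 10 compared members had a ratio above 0, with a median of 0.24. Past 2-fold were 3 of the 10, beside a background of 1.14%: Adipoq, Cidea, a lipid droplet protein, and Lpl. Adipoq, adiponectin, had 124 with exercise, 31.8 with ES, 40.3 with ischemia and 42.7 in sham. Fabp4, an abundant fat cell carrier, did not move with these 3 genes, at 2217 with exercise and 2154 with ischemia. The summed signal of that list was 6047 with exercise, 7202 with ES, 4173 with ischemia and 5626 in sham, and its part in the Lpl ratio was not tested.

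Of 18 cytosolic ribosomal protein genes, 1 was lower, beside a background of 0.872%, while 16 had ratios above 0 and the median was 0.19. The lower one was Rpl39, at the floor with exercise and at least 3.57-fold lower. Aldh1l2, a mitochondrial folate enzyme, was at least 3.51-fold lower. Ccnd1, a cyclin of early cell cycle, was 2.01-fold lower at 109 against 219.7, with other probe sets at log2 ratios of -0.69 and -0.38. Atp1b4, a muscle protein of the sodium pump beta family, was 2.14-fold lower (92.9 with exercise, 636 with ES, 199 with ischemia and 123 in sham). Aldh1l2, Ccnd1 and Atp1b4 were each the only lower gene of a list, beside a background of 0.872%. Those lists compared 17 amino acid and one-carbon, 17 cell cycle, and 14 ion pump and channel genes. None passed 2-fold among 26 proteasome genes (median -0.04), 15 dystrophin complex and membrane repair genes (-0.05), 15 antioxidant genes (-0.06, with Gpx1 at 1.95-fold higher), 5 Schwann cell (0.13), 3 erythroid (0.01), 2 lymphocyte (-0.19) and 2 neutrophil genes (-0.04).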
